A study of Mus musculus with 16 samples.

Results

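This account concerns 8 genes of the Krueppel-like factor (KLF) family, Klf3, Klf4, Klf6, Klf7, Klf9, Klf10, Klf12 and Klf13, taken by name from the deposited count table, where they are 8 of 52997 gene symbols and 8 of 17 Klf genes. Their RNA was measured in whole skeletal muscle and in sorted regulatory T cells (Tregs), a T cell class that carries the transcription factor Foxp3 and holds other lymphocytes in check. All mice were on the B6 background and aged 6 to 8 weeks. Tg mice carried the mTreg24 T cell receptor (TCR) transgene, and WT mice were mTreg24 TCR-tg- animals. All Treg donors of both genotypes carried a Foxp3 GFP reporter. Muscle was injured with cardiotoxin, a snake venom toxin that kills muscle fibres. Tregs were sorted on day 3 from injured muscle of WT and Tg mice, from spleen of WT mice and of injured Tg mice, and also from spleen of uninjured Tg mice, with 2 libraries in each of these 5 groups. The injury state of the WT spleen donors comes from the series' design text, since their own labels do not give it. Tregs of Tg mice were gated on Vβ8, a variable segment of the TCR beta chain, and Tregs of WT mice were sorted in total, so genotype and gate cannot be told apart. Whole muscle was taken on day 8 after injury, with 3 libraries from each genotype and no Foxp3 reporter named in their labels. Which promoter drives the TCR transgene, and whether animals were pooled, is not given in the sources used here.

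KLF proteins are transcription factors that bind GC-rich and CACCC-containing DNA through zinc fingers at their carboxy-terminal end. Their amino-terminal parts differ and sort the family into groups. KLF3, KLF8 and KLF12 recruit the corepressor CtBP, KLF9, KLF10, KLF11, KLF13 and KLF16 recruit the SIN3 corepressor complex, and KLF2, KLF4, KLF6 and KLF7 act largely as activators that bind acetyltransferases. In lymphocytes the family is best known through KLF2, which holds T cells in a quiescent, recirculating state, while KLF10 is induced by TGF-beta and has a known part in Treg function.

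Levels are given as CPM, the count of a gene scaled to the total count of its library. Library totals ran from 1986700 to 9116800 counts in Tregs and from 5095999 to 7075420 in whole muscle, so that a count of 0 allows up to 3 counts, or 0.329 to 1.51 CPM in Treg libraries and 0.424 to 0.589 CPM in whole muscle. Fold changes are log2 values from edgeR's quasi-likelihood test with TMM scaling (TMM adjusts library totals for differences in composition), each with its standard error (SE), and a gene is said to be higher or lower where its Benjamini-Hochberg adjusted p over all genes tested was under 0.05. Of the 8 members, 7 passed the filter on low counts in Tregs and 8 passed it in whole muscle. Klf9 was the member that did not pass in Tregs, with 56 counts over the 10 libraries. The 6 Treg markers (Foxp3, Il2ra, Ctla4, Ikzf2, Cd4 and Cd3e) summed to between 4410 and 7218 CPM in the Treg libraries and to between 7.06 and 13.4 CPM in whole muscle.

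The 3 members with the firmest or the largest tissue differences, Klf3, Klf4 and Klf6, are shown first by their promoters, to set side by side the starts of a gene that was lower and of 2 genes that were higher in muscle Tregs. RefSeq (GRCm38.p6) gave promoters for 7 of the 8 members, all but Klf10. Each sequence below is 300 bases around the RefSeq start of the gene, 5′ to 3′ on the gene's strand, and capitals mark matches on either strand to CACCC and to GGGCGG, the letters of the boxes that KLF and Sp proteins bind.
Klf3, chr5:64803271-64803570 on the plus strand: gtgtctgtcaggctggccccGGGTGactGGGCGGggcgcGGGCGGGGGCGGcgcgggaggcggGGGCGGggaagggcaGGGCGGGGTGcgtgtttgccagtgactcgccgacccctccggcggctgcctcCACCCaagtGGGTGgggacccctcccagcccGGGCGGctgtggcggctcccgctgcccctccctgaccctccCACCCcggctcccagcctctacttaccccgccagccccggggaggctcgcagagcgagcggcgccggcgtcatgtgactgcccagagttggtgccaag
Klf4, chr4:55532426-55532725 on the minus strand: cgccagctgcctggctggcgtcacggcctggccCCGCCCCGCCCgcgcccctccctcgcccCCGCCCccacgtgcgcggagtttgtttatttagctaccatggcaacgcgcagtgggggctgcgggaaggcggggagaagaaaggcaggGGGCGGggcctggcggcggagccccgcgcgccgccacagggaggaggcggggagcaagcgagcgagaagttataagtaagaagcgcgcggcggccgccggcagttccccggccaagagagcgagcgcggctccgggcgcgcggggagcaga
Klf6, chr13:5861239-5861538 on the plus strand: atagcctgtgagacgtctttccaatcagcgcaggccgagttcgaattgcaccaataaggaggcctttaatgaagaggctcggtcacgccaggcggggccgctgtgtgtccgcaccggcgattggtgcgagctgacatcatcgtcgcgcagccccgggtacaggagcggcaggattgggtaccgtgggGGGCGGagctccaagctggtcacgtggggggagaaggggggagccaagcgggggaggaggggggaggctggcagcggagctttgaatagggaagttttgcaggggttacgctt
The Klf3 window held 5 CACCC and 6 GGGCGG matches, with 1 CACCC match overlapping a GGGCGG match. The Klf4 window held 4 GGGCGG matches and the Klf6 window held 1, and neither held CACCC. Of all 32851 promoters of the same length, 57.5% held CACCC and 35.7% held GGGCGG. GC content was 76.7% in the Klf3 window, 74.3% in the Klf4 window and 63% in the Klf6 window, against a median of 52.7% over all promoters. Klf7 held 3 CACCC matches and 1 GGGCGG match, Klf13 held 1 and 3, and Klf9 and Klf12 held 1 CACCC match each and no GGGCGG. The letters TGANTCA, a loose form of the AP-1 site with any base at N, were present in 7.81% of all promoters. Among the 7 they were found in Klf9 alone. The Klf9 match reads TGAATCA and lacks the C or G that the AP-1 site has at N. TGACGTCA (1.79% of all promoters) was found in none of them. The TATA letters TATAAA, in 13.6% of all promoters, were found in Klf12 alone among the 7. The Klf12 window (chr14:100149747-100150046, minus strand) lies inside the gene as annotated in GENCODE M21 (GRCm38), whose 5′ end is at 100284679. The Klf7 window (chr1:64121340-64121639, minus strand) also lies inside its gene, with a 5′ end at 64122282. Neither window need be the main promoter of its gene. These are matches of letters in a window and no measurement of binding.

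In Tregs of WT mice, 3 members were higher in injured muscle than in spleen (Klf4, Klf6 and Klf10) and 1 was lower (Klf3). In Tregs of Tg mice, Klf4 and Klf6 were again higher and Klf3 was again lower in muscle than in the spleen of injured animals. Klf7, Klf12 and Klf13 did not pass the test in either genotype. Klf4 had at most 0.946 CPM in any spleen library and passed the filter on low counts only through its muscle libraries. The filter therefore favoured a call in that direction for Klf4. The 4 members called of 7 tested in WT stand beside 16.2% of all 13188 genes called in that comparison (9.38% higher in muscle and 6.87% lower), and the 3 of 7 in Tg beside 7.38% of all genes (4.83% higher and 2.55% lower). The median change of the 7 tested members was 0.96 in WT and 0.85 in Tg, and the median over all genes tested was -0.044 in WT and -0.038 in Tg. Members were chosen with earlier results of these data known, so neither their share of calls nor their median is a test against all genes. Of all 11 tested Klf genes, 3 were higher and 2 lower in WT (median 0.96). In Tg, 2 of the 11 were higher and 1 lower (median 0.51). When library totals alone were used without TMM factors, the median over all genes moved to -0.24 in both genotypes, and the directions of the called members did not change.

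**Figure D1:**
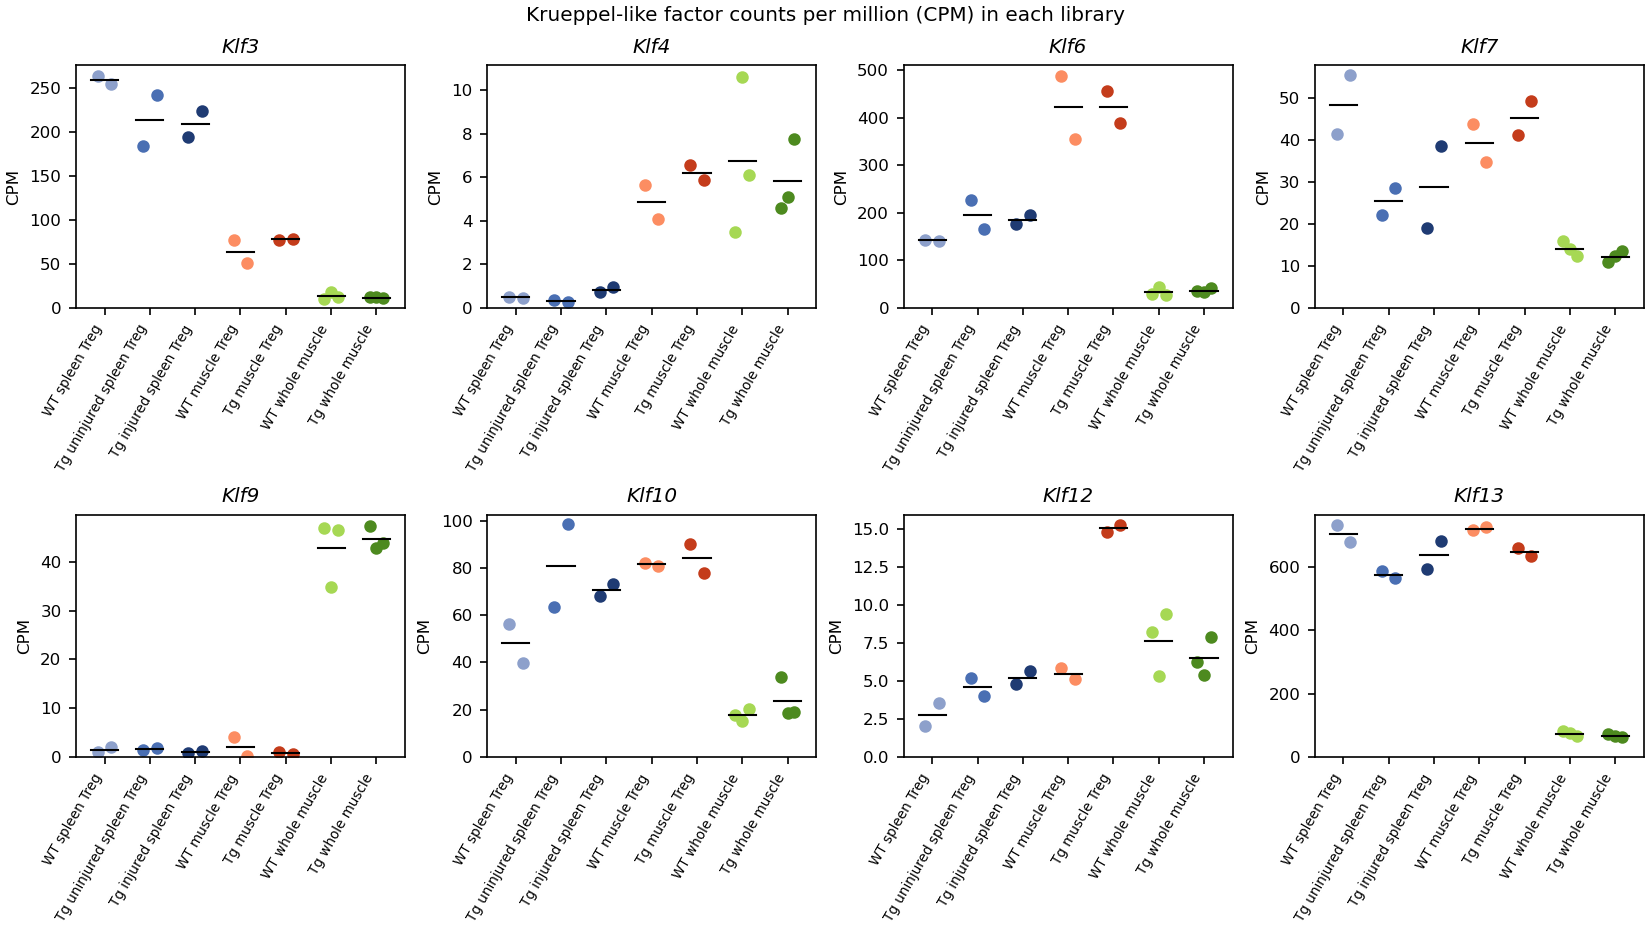
CPM (vertical axes from 0) of the 8 members in each of the 16 libraries (points) by group (horizontal axes), with the group mean as a bar. Klf3 lies between 50.8 and 78.6 CPM in the 4 muscle Treg libraries and between 184.5 and 263.3 CPM in the 6 spleen Treg libraries, Klf6 shows the opposite order, and Klf9 is near 0 in Tregs and between 34.9 and 47.4 CPM in whole muscle.

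Klf3 encodes a CtBP-recruiting repressor of the family and lies at chr5:64803388-64832901 on the plus strand (GENCODE M21, GRCm38). Its level in muscle Tregs was 76.8 and 50.8 CPM in the 2 WT libraries and 77.2 and 78.6 CPM in the 2 Tg libraries. In spleen it was 263.3 and 254.3 CPM in WT, 194 and 224.1 CPM in injured Tg and 184.5 and 242.1 CPM in uninjured Tg mice. Every spleen library was above every muscle library. The change from spleen to muscle was -1.85 ± 0.186 (log2, SE, n = 2 and 2) in WT, 3.62-fold lower, with an adjusted p of 1.2e-05. In Tg it was -1.23 ± 0.185, 2.34-fold lower, with an adjusted p of 0.000607. The Klf3 gene overlaps Gm20033 on the opposite strand and C230096K16Rik on its own, and since the libraries carry no strand information, reads of the overlapping stretches cannot be told apart.

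Klf12, the other CtBP-type member, gave 5.84 and 5.16 CPM in WT muscle Tregs, 14.8 and 15.3 CPM in Tg muscle Tregs, 2.01 and 3.55 CPM in WT spleen, 4.79 and 5.67 CPM in injured Tg spleen and 5.2 and 4.04 CPM in uninjured Tg spleen. Both Tg muscle libraries were above all 8 other Treg libraries. The muscle value minus the spleen value was 1.72 ± 0.519 (log2, SE) in Tg with an adjusted p of 0.0598, and 1.09 ± 0.557 in WT with an adjusted p of 0.211, so neither passed. The Tg difference did pass in 4 of 20 alternatives, over all of which its adjusted p ran from 0.023 to 0.31. These levels rest on 4 to 68 counts per library, and Klf12 (chr14:99870632-100284679, minus strand) overlaps an antisense gene, 4930517O19Rik, and a processed pseudogene on the opposite strand.

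Klf6 encodes an activator that responds early to injury and stimulation in many cell types, and Klf4 a factor best known from pluripotency, epithelial differentiation and monocytes. Klf6 (chr13:5861482-5870394, plus strand) gave 487.1 and 355.8 CPM in muscle Tregs of WT mice and 456.9 and 389.6 CPM in those of Tg mice. In spleen it gave 143.5 and 139.5 CPM in WT, 175.6 and 195 CPM in injured Tg, and 225.8 and 165 CPM in uninjured Tg mice. The 4 muscle libraries were all above the 6 spleen libraries. Klf6 was 3.36-fold higher in muscle in WT, a log2 change of 1.75 ± 0.18 (SE) with an adjusted p of 1.35e-05. It was 2.62-fold higher in Tg, a log2 change of 1.39 ± 0.176 with an adjusted p of 0.000142. Klf3 and Klf6 passed the test in both genotypes under each of the 20 alternative settings and left-out libraries.

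Klf4 (chr4:55527143-55532466, minus strand) was rare in all Tregs. In muscle Tregs it gave 26 and 37 counts (5.62 and 4.06 CPM) in WT and 19 and 26 counts (6.55 and 5.86 CPM) in Tg. In spleen it gave 1 and 2 counts in WT, 3 and 4 counts in injured Tg and 1 and 1 counts in uninjured Tg mice. The highest spleen library, at 0.946 CPM, lay below the lowest muscle library, at 4.06 CPM. The ratio of summed counts, each over its summed library totals, was 9.92 in WT (63 counts against 3, 95% interval for counting error 3.24 to 49.4) and 7.36 in Tg (45 counts against 7, interval 3.3 to 19.4). The fitted change was 3.46 ± 0.955 (log2, SE) in WT with an adjusted p of 0.0237 and 3.05 ± 0.856 in Tg with an adjusted p of 0.0423. The WT call was lost in 4 of 20 alternatives, with either WT spleen library left out (adjusted p 0.0781 without replicate 1 and 0.164 without replicate 2), with the compared groups alone (0.0713) and with all libraries thinned to the smallest (0.112). The Tg call was lost in 10 of 20, among them the 6 in which 1 of the 6 Tg libraries was left out, with adjusted p between 0.0174 and 0.241 over all alternatives and a positive change in each.

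Klf7, an activator related to KLF6 and known from neurons and early thymocytes, did not pass the tissue test in either genotype. It gave 43.7 and 34.8 CPM in WT muscle Tregs, 41 and 49.3 CPM in Tg muscle Tregs, 41.3 and 55.5 CPM in WT spleen, 18.9 and 38.5 CPM in injured Tg spleen and 22.2 and 28.6 CPM in uninjured Tg spleen. WT spleen and both muscle groups overlapped, and both Tg muscle libraries were above the 4 Tg spleen libraries. The muscle value minus the spleen value was -0.14 ± 0.305 (log2, SE, adjusted p = 0.807) in WT and 0.85 ± 0.312 (adjusted p = 0.122) in Tg. Without injured Tg spleen replicate 2 the Tg difference passed, with an adjusted p of 0.0356. Klf7 (chr1:64029447-64122282, minus strand) overlaps Gm26649 and Gm13748 on the opposite strand.

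Klf10, the TGF-beta-induced SIN3-type member (chr15:38291463-38300706, minus strand), gave 82.2 and 80.7 CPM in WT muscle Tregs against 56.4 and 39.8 CPM in WT spleen Tregs. It was 1.95-fold higher in WT muscle, a log2 change of 0.96 ± 0.229 (SE) with an adjusted p of 0.0105. In Tg mice it gave 90 and 78 CPM in muscle, 68 and 73.3 CPM in injured spleen and 63.5 and 98.4 CPM in uninjured spleen. The Tg difference against injured spleen was 0.44 ± 0.224 with an adjusted p of 0.283. WT spleen was the lowest group and did not overlap the others, and the 2 uninjured Tg spleen libraries spanned all the muscle values. The WT call was lost without WT spleen replicate 2, where the change was 0.72 and the adjusted p was 0.149.

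Klf13, a SIN3-type member known in T cells as a regulator of the chemokine gene Ccl5, had the narrowest range of the 7 tested members relative to its level. It gave 716.1 and 726.7 CPM in WT muscle Tregs, 660.7 and 635.1 CPM in Tg muscle Tregs, 732.4 and 677.8 CPM in WT spleen, 592.4 and 683.6 CPM in injured Tg spleen and 587.1 and 565 CPM in uninjured Tg spleen. Muscle and spleen overlapped in both genotypes. The muscle value minus the spleen value was 0.22 ± 0.124 (log2, SE) in each genotype, with an adjusted p of 0.268 in WT and 0.351 in Tg. Klf13 (chr7:63886351-63938915, minus strand) overlaps Gm27252 and the protein-coding E030018B13Rik on the opposite strand.

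Klf9, a glucocorticoid- and thyroid-hormone-induced SIN3-type member (chr19:23141226-23168134, plus strand), was close to the detection limit in Tregs. It gave 19 counts in the first and 1 count in the second WT muscle library (4.11 and 0.11 CPM), although the second library was the deeper, and between 2 and 9 counts in the other 8 Treg libraries. The ratio of muscle to spleen was 0.859 in WT (20 counts against 11, 95% interval for counting error 0.392 to 1.98) and 0.859 in Tg (6 against 8, interval 0.246 to 2.82). No difference in Klf9 between Treg groups was detectable at this depth.

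**Figure D2:**
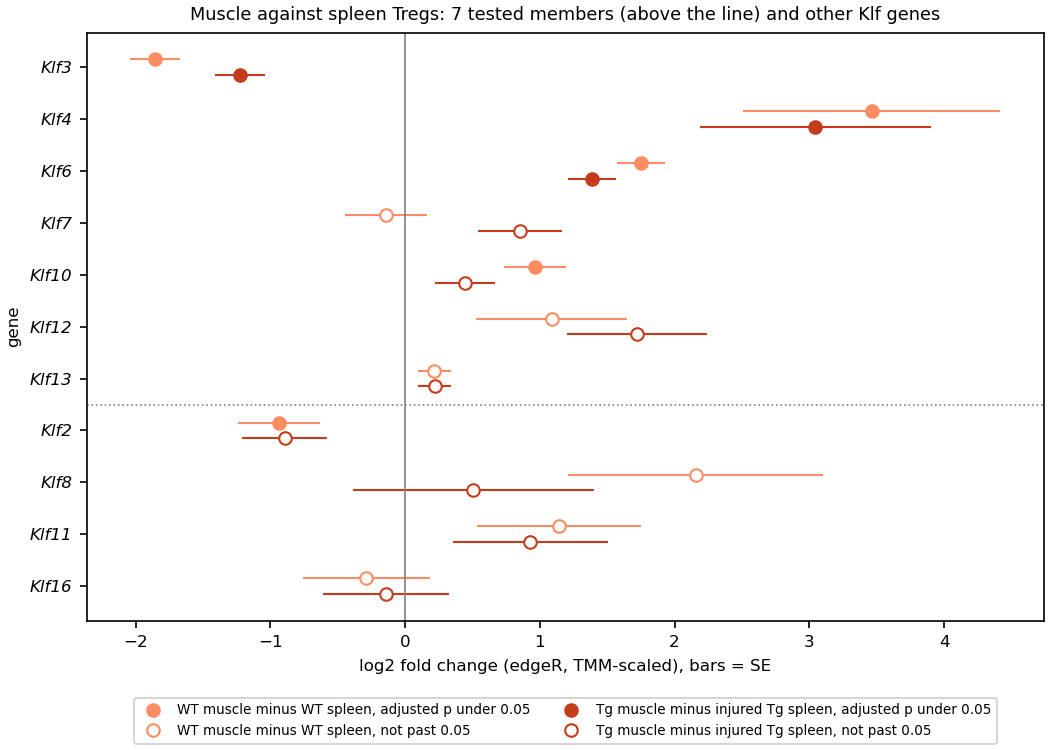
Log2 fold change between muscle and spleen Tregs (horizontal axis, edgeR with TMM scaling, bars are SE) for the 7 tested members above the dotted line and for 4 other tested Klf genes below it, in WT (light) and Tg (dark), filled where the adjusted p was under 0.05. Klf3 lies at -1.85 and -1.23, Klf6 at 1.75 and 1.39, and the rare Klf4 at 3.46 and 3.05 with the widest bars among the members.

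A ratio between members within a library needs no scaling between libraries. The count ratio of Klf6 to Klf3 in muscle Tregs was 6.35 and 7.01 in WT and 5.92 and 4.95 in Tg. In spleen Tregs it was 0.545 and 0.548 in WT, 0.905 and 0.87 in injured Tg and 1.22 and 0.682 in uninjured Tg mice. The lowest muscle library was above the highest spleen library. The ratio of Klf6 to Klf13 was 0.49 to 0.692 in muscle and 0.196 to 0.385 in spleen, and that of Klf3 to Klf13 was 0.0699 to 0.124 in muscle and 0.314 to 0.428 in spleen. The muscle and spleen libraries did not overlap in any of the 3 ratios. These ratios restate the Klf3 and Klf6 counts given above, which already lay apart between the tissues, and are no separate evidence.

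To compare levels between genes, CPM was divided by the kilobases of annotated exons. In muscle Tregs Klf6 and Klf13 led, with 96 ± 21.1 (SD, n = 2) and 95.8 ± 0.998 CPM per kilobase in WT and 96.4 ± 10.8 and 86 ± 2.4 in Tg, and in WT the pair did not differ beyond the spread between libraries. In spleen Tregs Klf13 led alone, at 93.6 ± 5.12 in WT, 84.7 ± 8.57 in injured Tg and 76.5 ± 2.07 CPM per kilobase in uninjured Tg mice, with Klf6 next at 32.2 ± 0.642, 42.2 ± 3.13 and 44.5 ± 9.79. Klf3 and Klf10 stood in opposite order in WT muscle and WT spleen. In muscle Tregs Klf10 stood at 19.5 ± 0.241 (WT) and 20.1 ± 2.04 (Tg) and Klf3 at 5.67 ± 1.63 and 6.93 ± 0.0873 CPM per kilobase. In WT spleen Klf3 stood at 23 ± 0.564 and Klf10 at 11.5 ± 2.81, and in both Tg spleen groups their libraries overlapped. As a share of the summed length-scaled level of all 17 Klf genes, Klf6 made up 36.1% to 42.1% in muscle Tregs and 16.2% to 27.2% in spleen Tregs. Klf3 made up 2.01% to 3.08% in muscle and 8.67% to 11.9% in spleen. The summed CPM of the family itself was 1305 to 1484 in muscle Tregs and 1129 to 1302 in spleen Tregs.

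**Figure D3:**
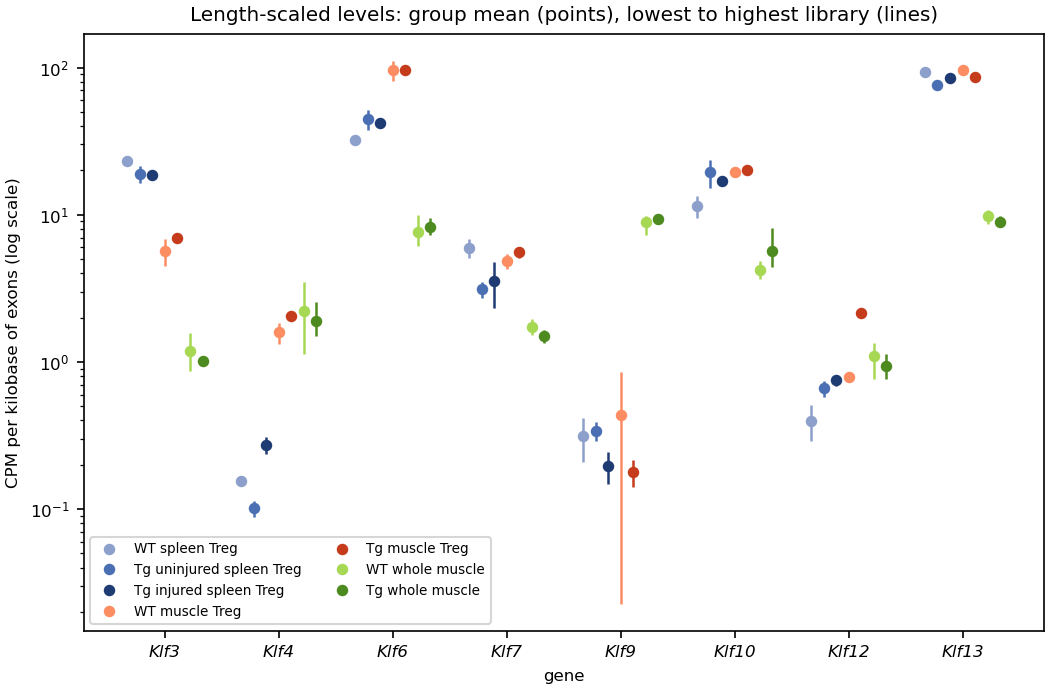
Levels of the 8 members as CPM per kilobase of exons (vertical axis, log scale) in the 7 groups, with points at the group means and lines from the lowest to the highest library. Klf13 and Klf6 are highest in Tregs, at 95.8 and 96 CPM per kilobase in WT muscle Tregs, and in whole muscle Klf13 and Klf9 stand together at 9.85 and 8.88.

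Among the other Klf genes, 4 more were tested in Tregs (Klf2, Klf8, Klf11 and Klf16). Klf2 gave 19.2 and 16.1 CPM in WT muscle Tregs against 41.3 and 35.5 CPM in WT spleen Tregs, and 15.2 and 9.91 CPM in Tg muscle against 29.7 and 23.2 CPM in injured Tg spleen. It was lower in WT muscle, by -0.94 ± 0.302 (log2, SE, adjusted p = 0.0472), a call lost in 12 of 20 alternatives, and the Tg value was -0.89 with an adjusted p of 0.108. Klf8 (adjusted p = 0.143 in WT), Klf11 (0.245) and Klf16 (0.734) did not pass in WT, nor did any of these 3 in Tg.

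Of the 8 trafficking genes listed as KLF2 targets in T cells, 2 were higher and 3 lower in WT muscle Tregs, with a list median of 0.04, and 2 were lower in Tg muscle Tregs, with a list median of -0.07. Ccr7, the receptor that guides T cells to lymph nodes, changed by -1.9 in WT and -2.23 in Tg (log2, adjusted p = 5.51e-06 and 2.98e-06). Il6ra, a subunit of the interleukin-6 receptor, was lower in WT and was named after its value was seen (-0.77, adjusted p = 0.0118). S1pr1, the receptor for exit from lymphoid tissue, had values of -0.3 and -0.49 that did not pass (adjusted p = 0.19 and 0.0641). Cxcr3, a receptor for inflammatory chemokines, was higher in WT muscle, by 2.07 (adjusted p = 1.78e-05), while in Tg its value was 0.43 (adjusted p = 0.252). Cxcr3 was not the largest rise of the list, which was 3.3 in WT and 3.11 in Tg. The largest rise in Tg did not pass.

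Of 18 upstream regulators of KLF genes, all tested, in muscle Tregs 3 were higher in WT and 2 in Tg mice, with 0 lower; the list medians were 0.2 and 0.29. In WT this count is near the 16.2% of all genes called, and in Tg it stands beside 7.38%. Smad7, the inhibitory SMAD that TGF-beta signalling induces, was higher by 1.49 in WT and 2.04 in Tg (adjusted p = 0.00228 and 0.000303). Nr3c1, the glucocorticoid receptor, was higher by 1.25 and 1.08 (adjusted p = 0.00118 and 0.00522). Smad3 was higher in WT, by 0.76 (adjusted p = 0.0366). Hif1a, the hypoxia-inducible factor, had values of 1.9 and 1.28 that did not pass (adjusted p = 0.07 and 0.256). Of 7 tested glucocorticoid-induced genes, 4 were higher in WT and 3 in Tg, with list medians of 1.81 and 0.87. Dusp1, a phosphatase of MAP kinases, was higher by 3.58 and 3.57, and Per1, a circadian repressor, by 1.93 and 2.51 (for Per1, adjusted p = 1.39e-05 and 1.94e-06). Dusp1 is also on the list of early response and heat shock genes described below, so both lists share its value. The glucocorticoid list also holds the member Klf9, which was not tested in Tregs. Sgk1, a kinase, was higher by 1.81 and 0.87 (adjusted p = 9.52e-05 and 0.0277), and Errfi1, an inhibitor of EGF receptors, by 2.25 in WT (adjusted p = 0.0248), with 1.7 in Tg (adjusted p = 0.12). Fkbp5, a chaperone of the glucocorticoid receptor, had values of 0.52 and -0.41 that did not pass (adjusted p = 0.322 and 0.529). Of the 15 tested cofactors that KLF proteins bind, 1 was higher in WT muscle (Rbbp7, a histone-binding protein of SIN3 complexes, by 0.63, adjusted p = 0.0129) and 0 were called in Tg. The 4 tested relatives of the Sp family (Sp1, Sp2, Sp3 and Sp4) gave 0 calls in both tissue comparisons.

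Early response and heat shock genes, which tissue dissociation is known to induce and among which Klf4, Klf6 and Klf10 are often counted, moved with the tissue as well. Their list, fixed without any Klf gene, held 22 tested genes, of which 17 were higher and 0 lower in muscle Tregs in each genotype. The list median was 1.78 in WT and 2.47 in Tg. Over all genes tested, 9.38% were higher in WT and 4.83% in Tg. Atf3, Hspa1a and Hspa1b were at 0 in WT spleen and passed the filter on low counts only through other groups. The filter therefore favoured a higher call for them in WT muscle. The summed level of the list was 13440 to 16430 CPM in WT muscle Tregs, 16260 to 17780 in Tg muscle Tregs and 3665 to 4441 CPM in the 6 spleen libraries. Fos was higher by 4.2 in WT and 4.76 in Tg (adjusted p = 5.28e-09 and 1.23e-09). Hspa1a, a heat shock chaperone, was at 0 counts in WT spleen and at least 234-fold higher in WT muscle, against a floor of 3 counts over the group. The part of this response in the Klf4, Klf6 and Klf10 differences was not tested.

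**Figure D4:**
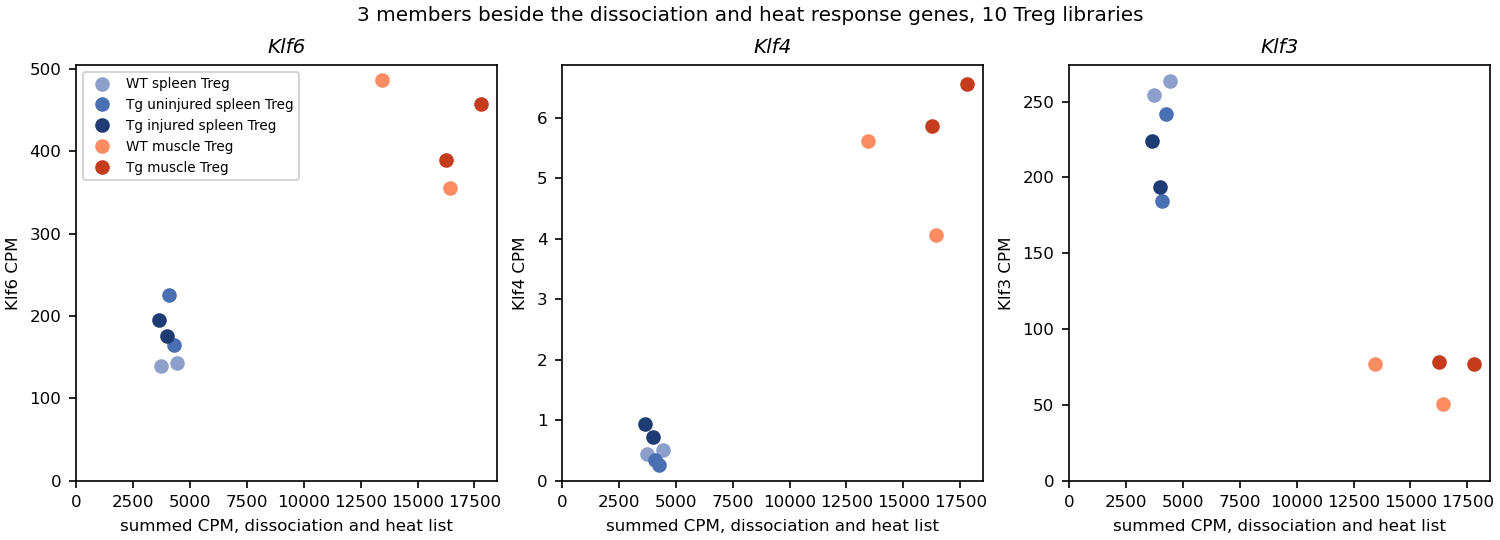
CPM of Klf6, Klf4 and Klf3 (vertical axes) against the summed CPM of the dissociation and heat response list (horizontal axes) in the 10 Treg libraries (points, coloured by group). The 4 muscle libraries lie at 13440 to 17780 summed CPM and the 6 spleen libraries at 3665 to 4441, with no library between them, so that the list and the tissue move together.

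Markers of other cell types were set beside Klf4, which monocytes and endothelial cells express. The 12 macrophage and monocyte markers summed to 22.1 to 46.9 CPM in muscle Tregs and to 87.1 to 209.4 CPM in spleen Tregs, so every muscle library was below every spleen library, and Adgre1 and Cd14 were at 0 in WT muscle Tregs. Of the 10 tested, 2 were lower and 1 higher in WT muscle Tregs, the higher being Itgam, an integrin subunit, with 14.8 against 4.09 CPM (log2 2.01, adjusted p = 0.0058), and 5 were lower and 0 higher in Tg, where Itgam had a value of -0.75 (adjusted p = 0.289). The 5 endothelial markers, led by Pecam1, summed to 151.7 to 175.3 CPM in muscle and 179.9 to 282.3 CPM in spleen Tregs, and Cdh5 was at 0 in both muscle groups. The 5 neutrophil markers summed to at most 4.11 CPM and the 5 fibroblast markers to at most 9.46 CPM in any Treg library. The 10 B cell markers, led by Ighm, summed to 1142 to 1565 CPM in muscle and 1722 to 3334 CPM in spleen Tregs, and Ms4a1 and Pax5 were at 0 in WT muscle Tregs. The 10 muscle fibre markers, led by the long genes Neb and Ttn, summed to 267.3 to 573.8 CPM in muscle Tregs and 185.7 to 486.3 CPM in spleen Tregs.

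Tg and WT Tregs were compared within each tissue, where genotype and the Vβ8 gate cannot be told apart. Between Tg and WT muscle Tregs, 0 of 7 tested members passed edgeR's test, beside 0.318% of all genes. Klf12 came nearest, with 14.8 and 15.3 CPM in Tg against 5.84 and 5.16 CPM in WT. Its log2 value was 1.46 ± 0.507 (SE), with an adjusted p of 0.389. It was the 1 member with an unadjusted p under 0.05 (0.0115), beside 1152 of all 13188 genes. Klf6 differed by 0.02 ± 0.172 and Klf10 by 0.05 ± 0.221, with overlapping libraries (adjusted p = 0.989 and 0.973). Between injured Tg and WT spleen Tregs, 0 of 7 passed, beside 1.3% of all genes. An unadjusted p under 0.05 was found for 3 of the 7, beside 1422 of all 13188 genes. These 3 were Klf7 (-0.77 ± 0.313, adjusted p = 0.355), Klf10 (0.57 ± 0.231, adjusted p = 0.356) and Klf6 (0.38 ± 0.177, adjusted p = 0.454). The unadjusted p of Klf3, Klf4, Klf12 and Klf13 in edgeR's test was 0.0989, 0.467, 0.163 and 0.242. DESeq2 and limma-voom gave 0 members in both comparisons too.

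Injury was compared in Tg spleen alone. Between injured and uninjured mice 0 of 7 members passed edgeR's test, 0 had an unadjusted p under 0.05, and every adjusted p was 1, beside 0% of all genes called. Values lay between -0.23 (Klf10) and 1.34 ± 1.12 (Klf4, 7 counts against 2). In Klf4 the ratio of counts over library totals was 2.75 with a 95% counting interval of 0.523 to 27.1, so a change of that member was not detectable at this depth. Klf3 differed by -0.06 ± 0.179 and Klf6 by -0.11 ± 0.175 (log2, SE), with overlapping libraries.

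Whether the tissue difference itself differed between genotypes was tested as an interaction, the Tg difference minus the WT difference, and 0 of 7 members passed, beside 0.136% of all genes. Klf3 had an interaction of 0.63 ± 0.258 (log2, SE, unadjusted p = 0.0279, adjusted p = 0.566). Klf7 had 0.99 ± 0.436 (unadjusted p = 0.0381, adjusted p = 0.587), from a value near 0 in WT and a positive value in Tg. Among all 13188 genes, 1046 had an unadjusted p under 0.05 for the interaction. Klf4 had -0.42 ± 1.23, Klf6 -0.36 ± 0.247, Klf10 -0.52 ± 0.319, Klf12 0.63 ± 0.763 and Klf13 0.0025 ± 0.176, and none of these 5 had an unadjusted p under 0.05. DESeq2 and limma-voom gave 0 members as well. For Klf10, called in WT and not in Tg, a difference between the genotypes was not detected.

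**Figure D5:**
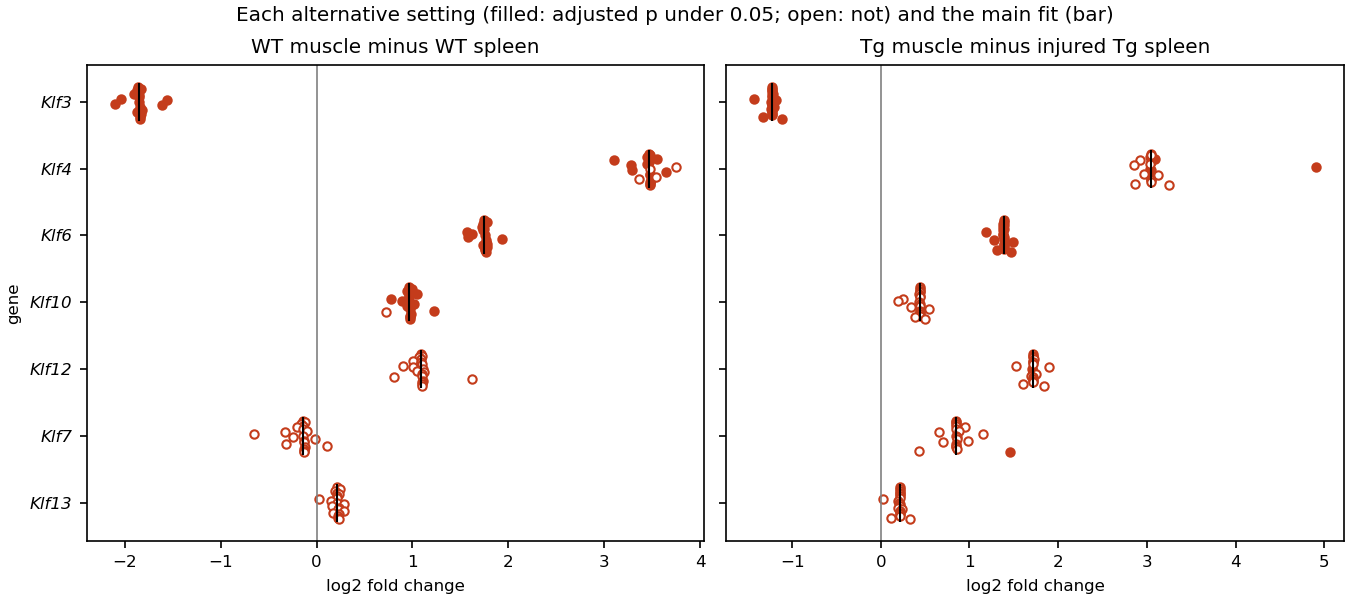
Log2 fold change of the 7 tested members (vertical axis) between muscle and spleen Tregs in WT and Tg under 20 alternative settings, left-out libraries included (points, filled where the adjusted p was under 0.05, open where not), with a black bar at the value reported. Klf3 and Klf6 are filled throughout, Klf4 in WT is filled in 16 of 20 and in Tg in 10 of 20, and Klf13 is open throughout.

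In whole regenerating muscle the members had another order. Klf9 gave 46.9, 34.9 and 46.5 CPM in WT and 47.4, 42.9 and 44 CPM in Tg mice, against at most 4.11 CPM in any Treg library. Per kilobase, Klf13 (9.85 ± 1.13, SD, n = 3), Klf9 (8.88 ± 1.41) and Klf6 (7.58 ± 2.11) led in WT and overlapped, as they did in Tg (8.96 ± 0.75, 9.29 ± 0.481 and 8.23 ± 1.11). Klf3 and Klf12 were lowest, at 1.19 ± 0.359 and 1.1 ± 0.303 in WT. Klf9 made up 14.6% to 23.5% of the family's length-scaled level in whole muscle and at most 0.324% in Tregs. These values come from a different tissue preparation and were not tested against the Tregs. In bulk samples such as these, fewer cells of a type and less RNA per cell cannot be told apart.

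Between Tg and WT whole muscle 0 of 8 members passed edgeR's test, beside 0.0323% of all 12377 genes tested, and 0 had an unadjusted p under 0.05. The adjusted p was 0.998 for Klf9 and 0.994 for the other 7, and the libraries of the genotypes overlapped in every member. Klf10 gave 17.7, 15.3 and 20.2 CPM in WT and 33.7, 18.5 and 19.2 CPM in Tg, a difference of 0.38 ± 0.255 (log2, SE), with 1 Tg library above the rest. Klf4 gave 3.47, 10.6 and 6.08 CPM in WT and 4.6, 5.08 and 7.77 CPM in Tg, a difference of -0.21 ± 0.436. Klf9 differed by 0.03 ± 0.173, and the median over the 8 members was -0.19, beside -0.0038 over all genes. Klf3 (9.69 to 17.7 CPM in WT and 10.6 to 11.8 in Tg), Klf6 (27.1 to 43.9 and 32.2 to 41.6), Klf7 (12.4 to 15.9 and 10.9 to 13.4), Klf12 (5.31 to 9.42 and 5.39 to 7.92) and Klf13 (64.8 to 81.2 and 63 to 73.8) overlapped as well. The macrophage markers summed to 545.7 to 1524 CPM in WT and 1486 to 1947 CPM in Tg whole muscle, and their part in the Klf values was not tested.

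The 3 genes whose level followed each member most closely over the 10 Treg libraries were taken from 7402 genes, by Pearson's r of log2 CPM. These values describe 10 libraries in which muscle and spleen stand apart, so genes that differ between the tissues score high together, and no p is given. For Klf3 they were Mypopos (r = 0.981), AC140209.1 (0.975) and Dennd2d (0.974). For Klf4 they included Fosl2, an AP-1 subunit (0.988), and Tob2, an antiproliferative protein (0.982). For Klf6 they were Plp2 (0.988), Fosb, another AP-1 subunit (0.98), and Galnt6 (0.98). Genes alike to Klf10 included Snrnp25 (0.963), Hells (0.962) and Cks2 (0.956), and Klf12 was followed by Cd40lg (0.973), Zmiz1 (0.964) and Sh3bp4 (0.951). For Klf7 they were Lactb2 (0.912), Arhgef10 (0.906) and Ssh2 (0.9), and for Klf13 Prmt1 (0.935), Ddx5 (0.926) and Rock1 (0.925). Between members r was 0.951 for Klf4 and Klf6, -0.945 for Klf3 and Klf6 and -0.931 for Klf3 and Klf4.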

How the data were processed

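The authors deposited raw read counts, whole numbers for each gene symbol in each of 16 libraries. Their tools were STAR 2.5.4 and featureCounts with build mm10, per the submitters' processing notes; neither annotation nor strand setting is given in the sources used here. Libraries were made from polyadenylated RNA with an oligo(dT) primer, PCR and transposon cutting, per the labels' protocols, so strand is not marked, and without molecular identifiers intervals and floors cover counting error only. Testing used edgeR 4.0.16 under R 4.3.3 (TMM, filterByExpr, robust glmQLFit and glmQLFTest). The 10 Treg libraries entered 1 fit (13188 genes, 5 residual degrees of freedom) and the 6 whole muscle libraries another (12377 genes, 4 residual degrees of freedom). SE was derived from the F statistic, and the procedure was tested on simulated data. Since no label ties replicates to separate animals, p-values reflect only the spread of these samples, possibly technical; libraries of a group differed by more than sampling noise. Alternatives were DESeq2 1.42.0, limma-voom 3.58.1, other scalings and filters, thinning, a replicate block, compared groups alone and each library left out. Members and gene lists were chosen with earlier results of these data known. Named are all members, tested Klf genes, up to 4 called and 2 uncalled genes per list by size, and the 3 genes most alike to each member (mean log2 CPM of at least 4). Gene positions and exon lengths are from GENCODE M21 and promoters from RefSeq. A few genes chosen by this rule are left out of the text but stay in the counts.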

Additional observations from a re-analysis of the deposited data

How the results depend on the processing

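In all, 50 results of members were recomputed, each under 19 or 20 settings in Tregs and 15 in whole muscle, counting 10 kinds of alternative and each library of that fit left out. Whole muscle was already fitted alone, and 4 results of Klf4 and Klf12 lacked a value under 1 setting. None reversed a called direction, 3 of 7 calls were lost somewhere (Klf10 in WT, and Klf4 in WT and Tg), 2 were gained somewhere (Klf12 and Klf7 in Tg), and 14 uncalled values changed sign. Members called between WT muscle and spleen Tregs numbered 4, and 2 to 4 with each library left out; the 2 came without WT spleen replicate 2, which left Klf3 and Klf6. Thinning to the smallest library and fitting the compared groups only gave 3. Between Tg muscle and injured Tg spleen Tregs the count was 3, and 2 to 4 over all alternatives. The other 5 comparisons gave 0 members throughout. With the replicate block the counts were 4 in WT and 2 in Tg, where Klf4 was lost (adjusted p = 0.0583); it changed no other call of a member. Same-numbered libraries deviated together with r from -0.0684 to 0.19 over 10 pairs of Treg groups, and with -0.0618, -0.0409 and -0.0206 in whole muscle, where 0 of 3 libraries correlated best with its own number, so the numbers were not taken to pair samples. Genes called over the whole table in WT numbered 2143, against 1046 with the compared groups only, 887 without WT spleen replicate 2, 1347 without WT muscle replicate 2, 2652 with limma-voom and 2768 without WT muscle replicate 1. In Tg the number went from 973 to 621 and 640 without Tg muscle replicates 1 and 2, to 492 and 452 without injured Tg spleen replicates 1 and 2, and to 1466 and 1463 without WT muscle replicates 1 and 2. The scaling by library totals was chosen after seeing the data. Depth limits Klf4, Klf9 and Klf12 in Tregs, and the cause of each lost or gained call was not tested.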

Other observations

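Of the Klf genes outside the 8 members, Klf11, a SIN3-type relative of Klf10, differed between the replicates of WT spleen Tregs, with 1.01 and 15.3 CPM (2 and 69 counts), against 17.7 to 37.9 CPM in the muscle Treg libraries and 18.9 to 22.3 CPM in Tg spleen. Its WT tissue difference of 1.14 (adjusted p = 0.245) became 4.3 (adjusted p = 0.00122) without WT spleen replicate 2 and 0.42 (adjusted p = 0.531) without replicate 1. Klf15, a metabolic regulator of muscle and liver, gave 5.35 to 15.3 CPM in whole muscle and at most 1.72 CPM in any Treg library, and Klf5 gave 2.46 to 5.65 CPM and at most 0.666 CPM. Klf16 gave 0.289, 2.65 and 0 CPM in WT and 2.3, 5.39 and 2.4 CPM in Tg whole muscle (log2 difference 1.72 ± 0.901, adjusted p = 0.994). The 4 tested Sp genes had positive values in Tg against WT whole muscle, with a median of 0.64, and none passed (Sp1 10.7 to 11.2 CPM in Tg against 5.3 to 8.83 in WT, adjusted p = 0.994).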
